A study of Mus musculus with 13 samples.

Results

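The interaction of obesity and HMB was examined in the transcriptomes of all 13 of the 13 tumors profiled. The HMB response was the difference in log2 expression between HMB-supplemented and unsupplemented tumors on the same diet. The interaction was the HMB response in mice with diet-induced obesity (DIO) minus the HMB response in mice on the control diet, so that a negative value marks a gene whose HMB response was lower in DIO. Panc02 cells, a mouse line of pancreatic ductal adenocarcinoma (PDAC), had been grown under the skin of male C57BL/6 mice, with 1 mouse per array. Without HMB there were 3 mice on the control diet (control) and 3 on a high-fat diet (DIO), and with HMB mixed into the same food there were 3 (control + HMB) and 4 (DIO + HMB). HMB (β-hydroxy-β-methylbutyrate) was fed as its calcium salt. All mice carried the same transplanted line outside the pancreas, and obesity and the fat content of the food cannot be told apart. Mice of the study also received the chemotherapy gemcitabine or its vehicle, and the labels do not say which of these the 13 mice received.

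HMB is made in the body from the amino acid leucine. Both molecules are known for engaging mTORC1, the kinase complex that couples amino acid supply to protein synthesis and growth. In tumors of this study, the paper reports no change of mTOR activity with HMB in either diet, read from phosphorylation of a ribosomal protein. Obesity changes the fuels, hormones and immune cells that reach a tumor. Solid tumors commonly contain regions with little oxygen, where the factor HIF-1 turns on genes for glycolysis, vessel growth and its own prolyl hydroxylases, while shortage of amino acids turns on targets of the factor ATF4.

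Values were log2 expression from Affymetrix Mouse Gene 2.1 ST arrays for 22180 genes. The arrays' medians ran from 4.27 to 4.65 and pairs of arrays correlated at 0.971 to 0.991 across genes. Of the markers used to check the tumor label, the keratins Krt8 (8.75 to 9.62) and Krt18 (8.99 to 9.97) and the mesenchymal filament gene Vim (12.06 to 12.48) varied by about 1 log2 unit or less over the 13 arrays, Cdh1 ran from 7.04 to 8.25, and the ductal markers Krt19 (median 3.96) and Epcam (median 4.24) were highest in DIO + HMB 1, at 6.56 and 6.47. Several arrays stood apart. DIO + HMB 1 was high in lymphoid genes, DIO + HMB 2 in fat cell genes and DIO + HMB 3 in skeletal muscle genes, and DIO 3 was low in fibroblast, collagen, mast cell and T cell genes. In bulk tumors, fewer cells of a type and less RNA per cell cannot be told apart.

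No gene had an HMB response that differed between the diets after adjustment. Of the 22180 genes, 0 (0%) passed an adjusted p of 0.05 in limma, where the lowest adjusted p was 0.933, and an ordinary linear model without moderation also called 0. At an unadjusted p under 0.05 limma listed 1068 genes (4.82%), against 1109 expected if no gene had an interaction, and the ordinary model listed 1126. The standard error (SE) of the interaction was 0.26 for the median gene, and a gene with that SE would have needed an interaction of 2.12 to pass on its own. The values that follow describe these 13 tumors, and every adjusted p given for an interaction is from limma over all 22180 genes.

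**Figure D1:**
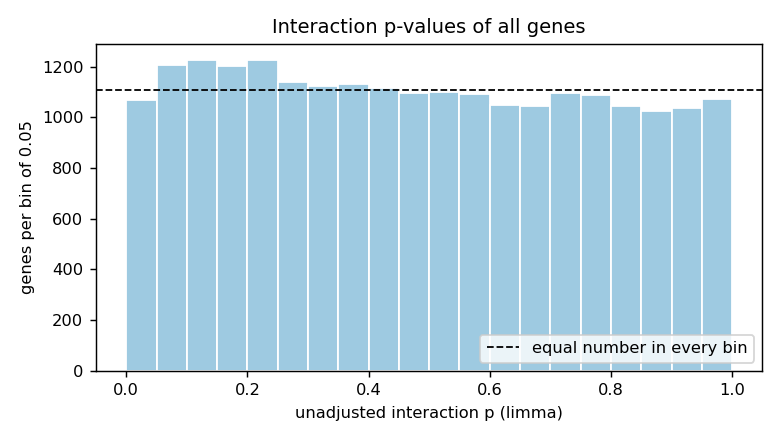
Unadjusted interaction p-values of the 22180 genes (limma), counted in bins of 0.05; the dashed line is an equal number in every bin. The lowest bin holds 1068 genes, below the 1109 of the dashed line.

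The 1068 genes were not split evenly. The HMB response was lower in DIO for 707 (3.19% of all genes) and higher in DIO for 361 (1.63%), so that 66.2% of the 1068 had a negative interaction. Among the 446 of them expressed at or above the median gene (4.45 on the log2 scale), 375 (84.1%) were negative. The median interaction was -0.085 over all genes at or above that level, 0.005 over those below it, and -0.045 over all genes. In 508 of the 707 negative genes the control group had the lowest of the 4 means, and in 197 the DIO + HMB group had it. A negative interaction by its definition favors these 2 groups as the lowest. The counts therefore describe the set and are not a separate result. The width of an array's values (SD across genes) also varied between groups. It was 2.51 to 2.54 in control arrays, 2.57 to 2.62 in control + HMB, 2.51 to 2.60 in DIO and 2.58 to 2.62 in DIO + HMB. With every array centred and scaled to the same width, 756 genes had an unadjusted p under 0.05, and 59.4% of them were negative. With array width as a covariate instead, there were 1074 such genes, and 65.6% of them were negative, close to the main fit. The 2 adjustments differ, and the part of array width in the split remains undecided.

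The HMB responses in the 2 diets had the same sign in more genes than not. They were measured on separate arrays, and across genes, which are not independent replicates, they correlated at r = 0.292 (Spearman rho = 0.295), and at r = 0.384 over genes at or above the median level. The sign was the same for 13511 genes (60.9%) and opposite for 8669 (39.1%). Of the opposite ones, 5160 (23.3%) were higher with HMB in the control diet and lower with HMB in DIO, and 3509 (15.8%) were lower in the control diet and higher in DIO. When both responses had to reach 0.5, 62 genes were opposite and 277 had the same sign, 220 of them higher with HMB in both diets. At an unadjusted limma p under 0.05 in each diet separately, 2537 genes (11.4%) were listed in the control diet and 1571 (7.08%) in DIO. Of these, 242 were listed in both, 211 in the same direction and 31 in opposite directions.

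**Figure D2:**
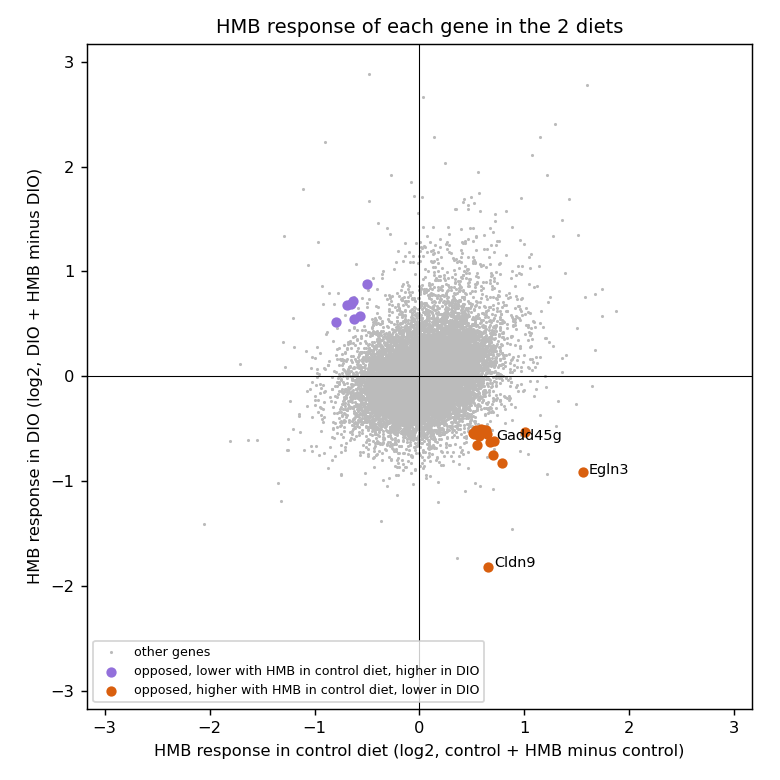
HMB response of each of the 22180 genes in the control diet (x axis, log2) and in DIO (y axis, log2); coloured points are the 24 opposed genes. The upper left and lower right fields hold the 8669 genes with opposite signs, and Egln3 and Cldn9 lie farthest out among the coloured points.

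Genes are called opposed here when the 2 HMB responses had opposite signs, each reached 0.5 and the unadjusted interaction p was under 0.05. There were 24 (0.108% of all genes), 17 higher with HMB in the control diet and lower in DIO (0.0766%) and 7 the other way (0.0316%). The split depended on scaling: with arrays centred and scaled it was 10 to 8, and with array width as a covariate 14 to 14. Most opposed genes lay near the bottom of the array's range. Expression was below the median gene in 19 of the 24, and 7 of them (29.2%) were odorant or vomeronasal receptor genes, a class that made up 6.35% of all genes measured. The 5 opposed genes at or above the median level were Egln3, Cldn9, Gadd45g, Apln and the predicted gene Gm5914.

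Egln3 had, with Cldn9, the most negative interaction of these 5. Egln3 encodes PHD3, an oxygen-dependent prolyl hydroxylase that marks HIF for destruction and is itself induced by HIF. Its log2 expression was 4.51, 3.84 and 4.65 in control tumors, 4.61, 5.97 and 7.08 with HMB, 5.57, 5.53 and 7.45 in DIO, and 6.09, 5.10, 4.63 and 5.28 in DIO + HMB. The control tumors were low, 2 of 3 control + HMB tumors and all DIO tumors lay above every control tumor, and the groups overlapped within each diet. The HMB response was 1.55 (SE 0.62) in the control diet and -0.91 (SE 0.58) in DIO, an interaction of -2.47 (SE 0.84, 95% confidence interval -4.30 to -0.63, adjusted p = 0.933). Leaving out 1 array at a time gave -3.10 to -1.83, the smallest size without DIO 3.

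The window around the start of Egln3 is shown because it holds the core of a hypoxia response element. It spans 250 bases before to 50 after the start, at chr12:54203825-54204124 on the minus strand (RefSeq, GRCm38.p6). Capitals mark the only match to ACGTG or GCGTG on either strand, which begins 229 bases before the start. A match is a description of the letters and not a binding site.

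Egln3: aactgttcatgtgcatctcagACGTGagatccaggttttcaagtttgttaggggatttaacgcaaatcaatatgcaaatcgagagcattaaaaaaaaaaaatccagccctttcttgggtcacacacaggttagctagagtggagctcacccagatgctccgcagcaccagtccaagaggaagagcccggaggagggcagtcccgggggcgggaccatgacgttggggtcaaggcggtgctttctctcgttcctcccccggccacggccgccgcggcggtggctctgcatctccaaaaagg

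These letters are common. ACGTG or GCGTG occurred, on either strand, in 14380 of 32851 such windows (43.8%), and 12628 of 27025 genes (46.7%) had it in at least 1 window. Among the hypoxia-induced genes described further on, all 18 that had a window held it, and 2 of the 20 measured had no window. The window of Apln, another hypoxia-induced gene among the opposed ones, held no match.

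The other opposed genes at this level had a smaller SE of the interaction than the 0.84 of Egln3, but not a smaller spread in every group. In control the SD of Cldn9 was 0.76 and that of Egln3 0.43. Cldn9, which encodes a claudin of tight junctions, was 6.52, 6.06 and 7.55 in control, 7.26, 7.51 and 7.34 in control + HMB, 8.21, 6.40 and 8.34 in DIO and 5.69, 5.98, 6.59 and 5.07 in DIO + HMB. All 4 DIO + HMB tumors were at or below 6.59, and DIO 2 was the only DIO tumor in that range. Its HMB response was 0.66 (SE 0.51) in the control diet and -1.82 (SE 0.48) in DIO, and the interaction was -2.47 (SE 0.70, adjusted p = 0.933).

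Gadd45g belongs to the stress-induced GADD45 family, which restrains cell division. Its values were 6.90, 7.45 and 6.81 in control, 7.19, 7.99 and 8.01 in control + HMB, 7.78, 7.77 and 8.13 in DIO and 6.99, 7.60, 6.76 and 7.73 in DIO + HMB. The DIO and DIO + HMB tumors did not overlap, while the control groups did. The HMB responses were 0.67 (SE 0.29) and -0.62 (SE 0.27), nearly equal in size, and the interaction was -1.30 (SE 0.40, adjusted p = 0.933).

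Apln encodes apelin, a peptide hormone of vessels that hypoxia induces. It was 6.42, 5.65 and 5.48 in control, 6.00, 7.09 and 6.40 in control + HMB, 6.58, 6.18 and 7.49 in DIO and 5.87, 6.02, 6.60 and 6.33 in DIO + HMB. The groups overlapped in both diets, with responses of 0.64 (SE 0.36) and -0.55 (SE 0.34) and an interaction of -1.19 (SE 0.50), which was -0.82 without DIO 3. Esm1, a gene of activated endothelium expressed below the median level and picked after its values were seen, had responses of 0.71 (SE 0.34) and -0.61 (SE 0.32).

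Without the p threshold, the genes named at or above the median level with responses of 0.5 or more that were higher in the control diet and lower in DIO also included Adh7, an alcohol and retinol dehydrogenase (interaction -1.40, SE 0.66), the glutamine transporter gene Slc38a3 (-1.42, SE 0.80), Pi16, a marker of a fibroblast subset (-2.15, SE 1.27), the nucleotide receptor gene P2ry2 (-1.10, SE 0.69), Cd248, a surface protein of fibroblasts and pericytes (-1.15, SE 0.85), and Fibin (-1.52, SE 1.17). The intervals of all 6 included 0. Single tumors weighed on them: without DIO 3 the interaction was -0.64 for Slc38a3 and -0.69 for P2ry2, without DIO 2 it was -1.22 for Pi16 and -0.60 for Cd248, and without control + HMB 2 it was -0.82 for Fibin.

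**Figure D3:**
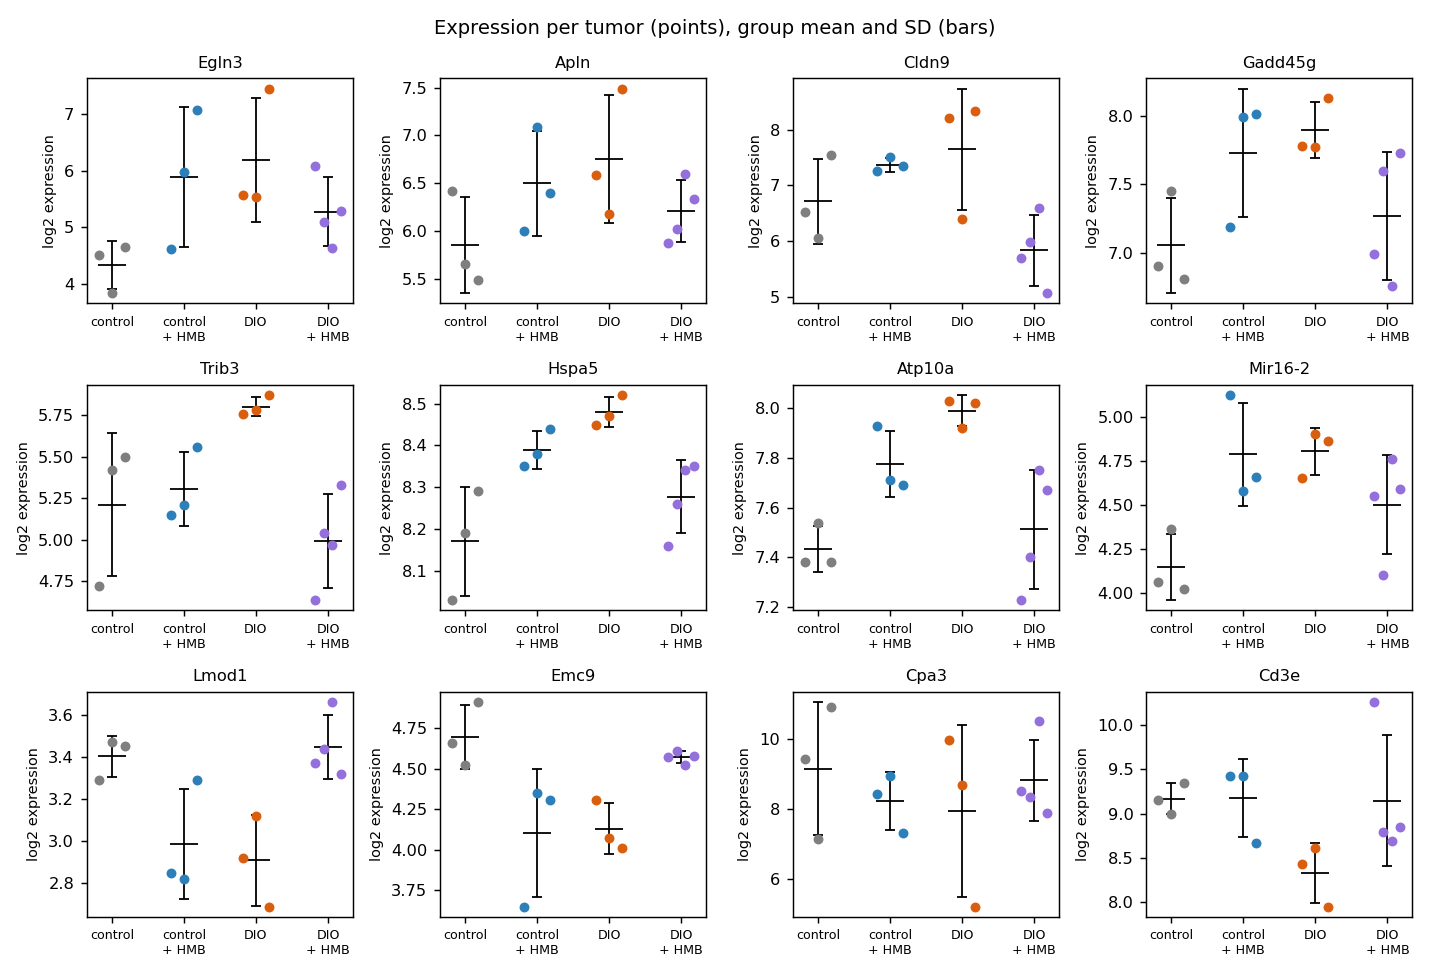
Log2 expression of 12 genes in each tumor (points) with the group mean and SD (bars). In Egln3 to Mir16-2 the mean is higher with HMB in the control diet and lower with HMB in DIO, in Lmod1, Emc9 and Cpa3 it is the reverse, and Cd3e is near level in the control diet and higher with HMB in DIO.

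A second view asked which genes separated the tumors completely, with no overlap between supplemented and unsupplemented tumors in either diet and with opposite directions. There were 52 such genes (0.234%), 35 higher with HMB in the control diet and lower in DIO (0.158%) and 17 the reverse (0.0766%), against 232 (1.05%) separated in the same direction in both diets, 140 of them higher with HMB (0.631%) and 92 lower (0.415%). Taken singly, 3864 genes (17.4%) did not overlap in the control diet and 1728 (7.79%) in DIO. Complete separation arises more often by chance between 3 and 3 arrays, as in the control diet, than between 3 and 4, as in DIO. These shares therefore cannot be compared between the diets. How many genes would separate in opposite directions by chance was not computed, so the 52 are a description of these tumors. Only 3 genes, Vmn1r80, Vmn2r1 and Nxf3, were also among the 24 opposed genes, and all 3 lay below the median level. Of the 52, 18 were at or above the median level, 14 and 4 in the respective directions. The genes named from this set and by low p in the next paragraphs were chosen after their values were seen.

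Atp10a, which encodes a phospholipid flippase, was 7.38, 7.54 and 7.38 in control, 7.93, 7.71 and 7.69 in control + HMB, 8.03, 7.92 and 8.02 in DIO and 7.23, 7.40, 7.75 and 7.67 in DIO + HMB. Every control + HMB tumor was above every control tumor and every DIO + HMB tumor below every DIO tumor, and DIO + HMB spanned the range of control. Its responses were 0.34 (SE 0.15) and -0.47 (SE 0.14), and the interaction was -0.82 (SE 0.20, adjusted p = 0.933).

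Hspa5 encodes BiP, the main chaperone of the endoplasmic reticulum. It was 8.03, 8.19 and 8.29 in control, 8.35, 8.38 and 8.44 in control + HMB, 8.45, 8.47 and 8.52 in DIO and 8.16, 8.26, 8.34 and 8.35 in DIO + HMB. The separation was complete but small, with responses of 0.22 (SE 0.11) and -0.20 (SE 0.10) and an interaction of -0.43 (SE 0.15). Coq3, a methyltransferase of coenzyme Q synthesis (interaction -0.71, SE 0.18), the connexin gene Gja1 of gap junctions (-0.70, SE 0.23), Rab3ip, which activates the vesicle GTPase Rab8 (-0.52, SE 0.18), and Ift20, a component of ciliary transport (-0.50, SE 0.16), were separated in the same directions. Pbrm1, a subunit of a SWI/SNF chromatin remodeler, had the smallest interaction of the 14 (-0.24, SE 0.13).

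In the reverse direction, Emc9, a subunit of the complex that inserts proteins into the endoplasmic reticulum membrane, was 4.66, 4.52 and 4.91 in control, 3.65, 4.35 and 4.31 in control + HMB, 4.31, 4.07 and 4.01 in DIO and 4.57, 4.61, 4.52 and 4.58 in DIO + HMB. The 4 DIO + HMB tumors lay within the range of control, and the interaction was 1.04 (SE 0.25, adjusted p = 0.933). Lmod1, an actin nucleator of smooth muscle, was 3.29, 3.47 and 3.45 in control, 2.85, 2.82 and 3.29 in control + HMB, 2.92, 3.12 and 2.69 in DIO and 3.37, 3.44, 3.66 and 3.32 in DIO + HMB. The lowest control and highest control + HMB tumors differed by less than the second decimal, and the interaction was 0.96 (SE 0.22). Emc9 (mean 4.39) and Lmod1 (mean 3.21) both lay below the median gene at 4.45. Ass1, the enzyme that makes argininosuccinate on the route to arginine, was low on the array (mean 2.93) and had responses of -0.45 (SE 0.17) and 0.47 (SE 0.16). Cyb5a, which encodes cytochrome b5, had responses of -0.36 (SE 0.12) and 0.24 (SE 0.11), Abhd17a, a protein depalmitoylase, -0.47 (SE 0.14) and 0.26 (SE 0.13), and Pigm, a mannosyltransferase of GPI anchor synthesis, -0.15 (SE 0.11) and 0.21 (SE 0.10).

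Some genes of low p differed mainly in 1 diet. Kctd21, an adaptor of a cullin ubiquitin ligase, was 3.81, 3.75 and 4.21 in control and 5.33, 6.04 and 5.41 in control + HMB, but 5.32, 5.07 and 5.16 in DIO and 5.02, 5.65, 5.58 and 5.52 in DIO + HMB. The control tumors stood below the other 10. The interaction was -1.42 (SE 0.30), made of responses of 1.67 (SE 0.22) and 0.25 (SE 0.20). Jag1, a Notch ligand, had the same form, with responses of 0.64 (SE 0.15) and -0.25 (SE 0.14), as did Dusp7, a phosphatase of the kinase ERK, with 0.77 (SE 0.19) and -0.22 (SE 0.18). Lpcat4, an acyltransferase of phospholipid remodeling, differed in DIO instead: its responses were 0.17 (SE 0.13) and -0.63 (SE 0.12), and the DIO tumors at 9.57, 9.44 and 9.43 were above the other 10.

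Among 483 microRNA genes, 27 (5.59%) had an unadjusted interaction p under 0.05 in limma, close to the 4.82% of all genes, 16 with a lower and 11 with a higher HMB response in DIO. The array's probe sets report transcript from these loci and not the mature microRNAs. Mir15b and Mir16-2 were both among the 27, were picked after their values were seen, and are neighbors. Their hairpins lie 66 bases apart on chromosome 3 inside Smc4 (chr3:69004738-69034623, GRCm38.p6), and their 5p arms are shown because they carry the same seed, bases 2 to 8, in capitals.

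mmu-miR-15b-5p: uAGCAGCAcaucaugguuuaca
mmu-miR-16-5p: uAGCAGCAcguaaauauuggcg

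The sequences are from RefSeq, at chr3:69009775-69009796 and chr3:69009918-69009939 on the plus strand. The miR-15/16 family is known for limiting cyclins and the anti-apoptotic factor BCL2. Mir16-2 was 4.06, 4.36 and 4.02 in control, 5.12, 4.58 and 4.66 in control + HMB, 4.65, 4.90 and 4.86 in DIO and 4.55, 4.10, 4.76 and 4.59 in DIO + HMB. The control tumors were below every control + HMB and DIO tumor, and DIO overlapped DIO + HMB. Its interaction was -0.94 (SE 0.26, adjusted p = 0.933).

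Mir15b was 2.00, 2.02 and 1.85 in control, 3.06, 2.18 and 2.15 in control + HMB, 2.22, 3.30 and 2.35 in DIO and 2.73, 1.47, 2.32 and 1.82 in DIO + HMB. It was near the bottom of the array's range, with 1 high tumor in each of control + HMB and DIO, and its interaction of -1.05 (SE 0.48) was -0.71 without DIO 2. Smc4, the condensin gene that hosts both hairpins, had an interaction of -0.16 (SE 0.24) and responses of -0.04 (SE 0.17) and -0.20 (SE 0.16). Mir150, a microRNA gene of mature lymphocytes, was 2.66, 3.20 and 3.50 in control, 2.62, 2.17 and 2.19 in control + HMB, 2.09, 2.10 and 2.40 in DIO and 2.71, 3.39, 2.65 and 2.12 in DIO + HMB. Mir150 was likewise near the bottom of the array's range (mean 2.6), and its interaction was positive at 1.32 (SE 0.39).

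Gene lists were then compared by the median interaction of their members, beside -0.045 for all genes. Over genes at or above the median level it was -0.085, and 63.9% of them had a negative interaction, against 56.6% of all genes. The shares of all genes given below include genes of low signal, and a list of well expressed genes may differ from them for that reason. Over 50 lists the medians ran from -0.383 to 0.850, and 30 were negative. The most negative were targets of ATF4 and mTORC1 (-0.383, 24 genes), mevalonate and cholesterol synthesis (-0.367, 20 genes), M2-like macrophage genes (-0.353, 17 genes), cell cycle genes (-0.296, 28 genes) and hypoxia-induced genes (-0.277, 20 genes). The most positive were B cell and plasma cell genes (0.850), mast cell and eosinophil genes (0.766), lymph node genes (0.707), adipocyte genes (0.580) and T cell receptor genes (0.551). The M2-like median was -0.87 without DIO 3 and -0.10 without DIO 2. No list member had an interaction past the adjusted threshold in limma. The ATF4 list and the positive lists above were the 6 with the largest absolute medians. From each, 3 members were named by lowest p among those with the sign of the median. The direction of these members was therefore fixed by the choice and is no support for the list.

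**Figure D4:**
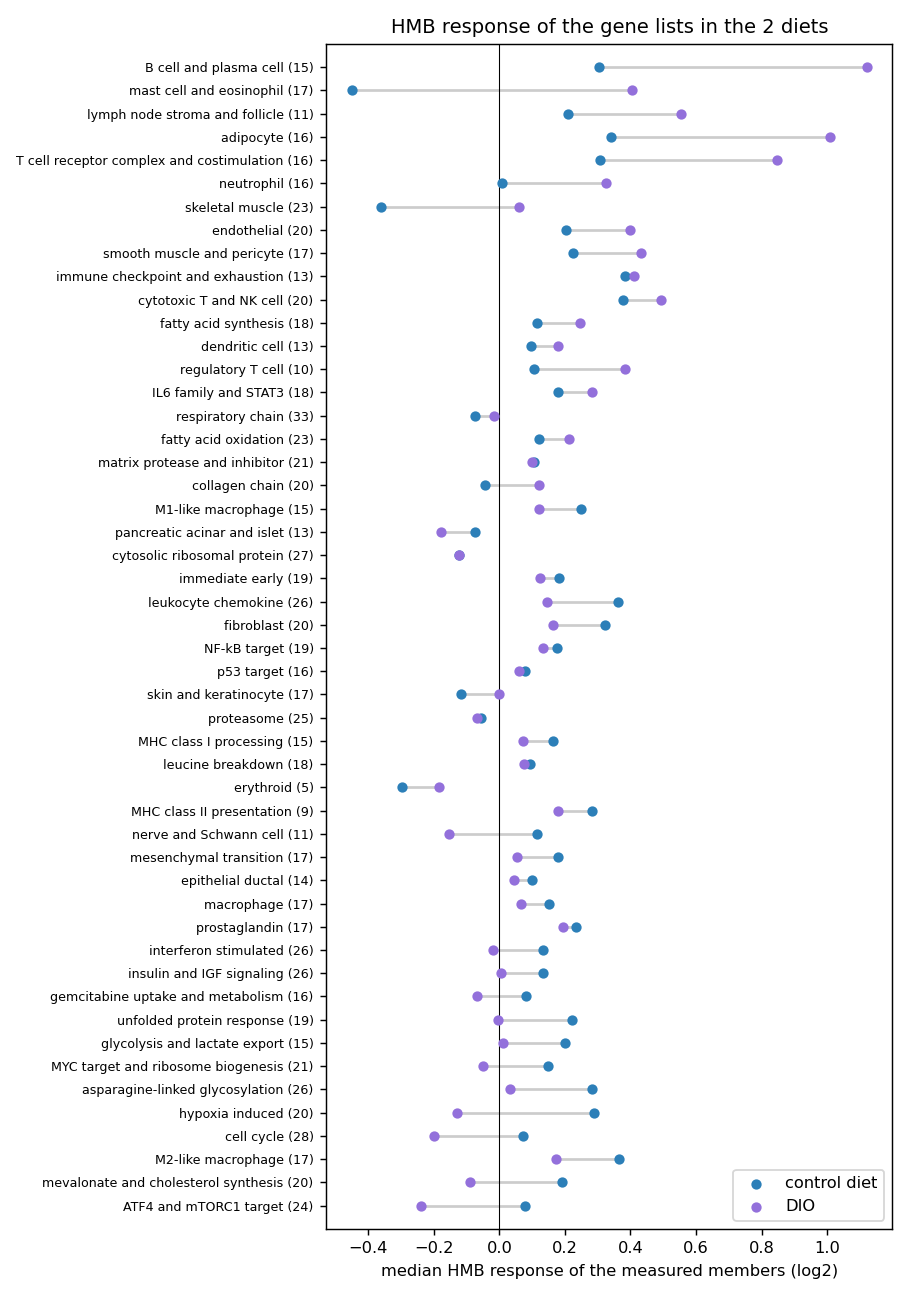
Median HMB response (log2) of the measured members of each list, their number in parentheses, in the control diet (blue) and in DIO (purple), ordered by the median interaction. The ATF4, mevalonate, cell cycle, hypoxia and MYC lists have a positive median in the control diet and a negative one in DIO, and the mast cell and skeletal muscle lists the reverse.

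Of the 20 hypoxia-induced genes, 10 were higher with HMB in the control diet and lower in DIO and 0 were the reverse, against 23.3% and 15.8% of all genes. At an unadjusted limma p under 0.05, 3 had a lower response in DIO (P4ha1, Egln3 and Stc2) and 0 a higher one, against 3.19% and 1.63%. P4ha1, a prolyl hydroxylase of collagen, was 7.63, 7.53 and 7.80 in control, 7.78, 7.94 and 8.26 in control + HMB, 8.15, 8.31 and 8.09 in DIO and 7.59, 7.88, 7.80 and 8.0 in DIO + HMB. All DIO tumors were above all DIO + HMB tumors, the control groups overlapped, and the interaction was -0.71 (SE 0.21). Adm, which encodes the vessel hormone adrenomedullin, and Ddit4, an inhibitor of mTORC1, had interactions of -1.03 (SE 0.71) and -0.88 (SE 0.51), and the growth factor gene Vegfa -0.27 (SE 0.35). The list's score, the mean of its genes after each was centred over the 13 arrays, was -0.38 to -0.22 in control, -0.25 to 0.18 in control + HMB, 0.11 to 0.26 in DIO and -0.05 to 0.13 in DIO + HMB. With 1 array left out at a time the list's median stayed between -0.37 and -0.21.

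Of the 24 ATF4 and mTORC1 targets, 13 were higher with HMB in the control diet and lower in DIO and 2 were the reverse, against 23.3% and 15.8% of all genes. The interaction was negative for 21, against 56.6% of all genes and 63.9% of those at or above the median level. The list's median was -0.25 without control + HMB 3. Of its members, 2, Trib3 and Stc2, had an unadjusted limma p under 0.05, against 3.19% lower in DIO over all genes. Trib3 encodes a pseudokinase that restrains AKT and is a classical ATF4 target. It was 4.72, 5.42 and 5.50 in control, 5.15, 5.21 and 5.56 in control + HMB, 5.76, 5.78 and 5.87 in DIO and 4.64, 5.04, 4.97 and 5.33 in DIO + HMB. All DIO tumors stood above the other 10, and the control groups overlapped. Its responses were 0.10 (SE 0.22) and -0.81 (SE 0.20), and the interaction was -0.91 (SE 0.30, adjusted p = 0.933).

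The window around the start of Trib3 is shown for its match to TGATGNAA, the C/EBP-ATF response element through which ATF4 binds DNA. It lies at chr2:152344011-152344310 on the minus strand (RefSeq, GRCm38.p6), and capitals mark the match, read on the opposite strand, which begins at base 15 of the transcript.

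Trib3: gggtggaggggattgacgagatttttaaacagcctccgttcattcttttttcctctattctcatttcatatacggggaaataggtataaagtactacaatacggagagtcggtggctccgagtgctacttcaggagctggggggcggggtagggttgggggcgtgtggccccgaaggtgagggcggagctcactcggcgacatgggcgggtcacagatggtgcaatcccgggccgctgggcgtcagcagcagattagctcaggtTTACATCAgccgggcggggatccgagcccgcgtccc

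This motif, searched on both strands, was in 1304 of 32851 windows (3.97%) and in at least 1 window of 1219 of 27025 genes (4.51%). Of the 20 ATF4 list genes with a window, 7 held it: Asns, Chac1, Fgf21, Nupr1, Slc7a11, Trib3 and Vldlr. Their interactions were not all negative: that of Fgf21, a hormone of nutrient stress, was 0.23 (SE 0.31), while those of the asparagine synthetase gene Asns and the cystine transporter gene Slc7a11 were -0.56 (SE 0.36) and -0.61 (SE 0.61). Stc2, a secreted glycoprotein on both this list and the hypoxia list, had an interaction of -0.60 (SE 0.25), and Nupr1, a stress-induced chromatin protein, -0.35 (SE 0.17).

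In genes of the secretory pathway most interactions were negative as well, against 56.6% of all genes and 63.9% of those at or above the median level. Of the 19 unfolded protein response genes, 17 had a negative interaction (median -0.186), and Hspa5, Creld2 (-0.42, SE 0.18) and Herpud1 (-0.45, SE 0.20) had an unadjusted limma p under 0.05, where 3.19% of all genes had a lower response in DIO. Of the 26 genes of asparagine-linked glycosylation, 23 were negative (median -0.266), among them the mannosyltransferase gene Alg9 (-0.51, SE 0.19), Alg13 of the second sugar step (-0.66, SE 0.22) and Stt3a, a catalytic subunit of the oligosaccharyltransferase (-0.38, SE 0.16). In both lists the response was mostly in the control diet: the medians there were 0.223 and 0.284, and in DIO -0.005 and 0.032. With 1 array left out at a time, the median interactions ran from -0.26 to -0.16 and from -0.38 to -0.21.

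Of the 28 cell cycle genes, 19 were higher with HMB in the control diet and lower in DIO and 0 were the reverse, against 23.3% and 15.8% of all genes. The kinase gene Cdk2 had the only unadjusted limma p under 0.05, a share close to the 3.19% of all genes. It was 7.07, 7.53 and 7.31 in control, 7.96, 8.15 and 7.76 in control + HMB, 7.95, 7.86 and 7.70 in DIO and 7.63, 7.83, 8.02 and 7.80 in DIO + HMB. The control tumors were below the other 10 and DIO overlapped DIO + HMB, with an interaction of -0.67 (SE 0.21). Mki67, the proliferation marker, had an interaction of -0.39 (SE 0.22, adjusted p = 0.933), and the DIO + HMB scores of the list ranged from -0.40 to 0.30, wider than the -0.10 to 0.29 of DIO. The list's median of -0.296 was -0.16 without DIO 3.

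All 20 measured mevalonate and cholesterol synthesis genes had a negative interaction, against 56.6% of all genes and 63.9% of those at or above the median level. Of these 20, 11 were higher with HMB in the control diet and lower in DIO and 0 were the reverse, against 23.3% and 15.8%. The sizes were small beside their errors. Only Ggps1, which makes the geranylgeranyl diphosphate used for protein prenylation, had an unadjusted limma p under 0.05 (-0.59, SE 0.20), and its responses were both positive, at 0.79 and 0.21. Msmo1, a sterol demethylation enzyme, had -0.65 (SE 0.36), Cyp51, the lanosterol demethylase, -0.65 (SE 0.45), and Fdps, which makes farnesyl diphosphate, -0.54 (SE 0.47). Control + HMB 3, DIO 3 and DIO + HMB 4 were the highest arrays in this list (scores 0.33, 0.33 and 0.34), and the list's median was -0.18 without DIO 3 and -0.60 without DIO 2.

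Enzymes of leucine breakdown, the route on which HMB arises, showed little. Their median was -0.070 over 18 genes, with 3 opposite in each direction. Bckdha, a subunit of the branched-chain keto acid dehydrogenase, was the only member with an unadjusted limma p under 0.05. It was 7.51, 7.48 and 7.49 in control, 7.09, 7.26 and 7.28 in control + HMB, 7.06, 7.13 and 7.22 in DIO and 7.08, 7.35, 7.29 and 7.12 in DIO + HMB. The control tumors were above the other 10, and the interaction was 0.36 (SE 0.16).

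**Figure D5:**
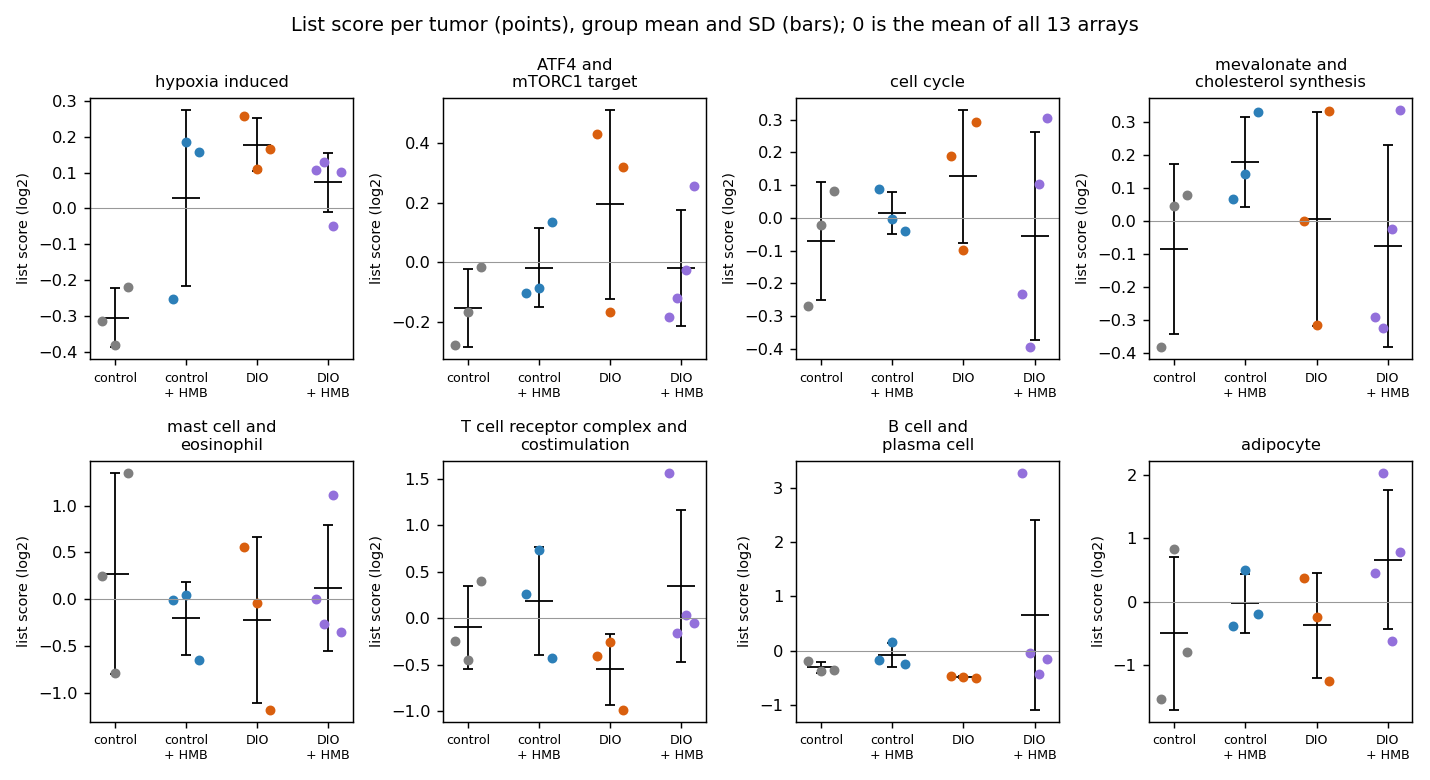
Score of 8 gene lists in each tumor (points; mean of the list's genes after each gene was centred over the 13 arrays, log2), with the group mean and SD (bars). In the upper row the control group has the lowest mean of the 4 groups, and in the lower row single tumors stand far from the rest of their group.

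The 5 lists with the most positive medians were markers of cells other than the tumor cells, and in them single tumors stood far from the rest. In the mast cell and eosinophil list 13 of 17 genes were lower with HMB in the control diet and higher in DIO and 2 were the reverse, against 15.8% and 23.3% of all genes. The list's median of 0.766 was 0.33 without control 3 and 1.21 without control 2. Cpa3, a mast cell protease, was 9.42, 7.14 and 10.90 in control, 8.43, 8.94 and 7.32 in control + HMB, 9.97, 8.68 and 5.23 in DIO and 8.53, 8.36, 10.51 and 7.90 in DIO + HMB. Control 3 and DIO + HMB 3 were high and DIO 3 was low, and the groups overlapped in both diets. The interaction was 1.79 (SE 1.57, 95% confidence interval -1.62 to 5.20), and it was 0.42 without DIO 3 and 2.79 without control 2.

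The other mast cell proteases followed the same arrays. Cma1, Mcpt1, Mcpt2, Mcpt4 and the tryptase gene Tpsb2 had interactions of 1.24 to 1.76 with SE of 1.34 to 1.61, and that of Tpsb2 was -0.01 without DIO 3. Kit, the mast cell growth factor receptor, had 0.74 (SE 0.55), the histamine-forming enzyme Hdc 0.77 (SE 0.62) and the eosinophil granule gene Prg2 0.36 (SE 0.28). The eosinophil receptor gene Siglecf went the other way, at -0.59 (SE 0.30). The same control 3 and DIO + HMB 3 arrays had high skeletal muscle scores (1.53 and 3.24), and the part of muscle tissue in the mast cell values was not tested.

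Of the 23 skeletal muscle genes, 11 were lower with HMB in the control diet and higher in DIO and 5 were the reverse, against 15.8% and 23.3% of all genes. The list's median of 0.365 was -0.53 without DIO + HMB 3 and 1.28 without DIO 1. Ttn, the giant sarcomere protein gene, was 4.25, 3.46 and 6.69 in control, 3.45, 4.36 and 4.75 in control + HMB, 5.81, 3.22 and 3.26 in DIO and 3.39, 3.46, 9.21 and 3.35 in DIO + HMB. A single tumor was high in DIO + HMB, and the interaction of 1.37 (SE 1.91) was -0.08 without it. Lmcd1, a LIM-domain regulator in muscle, and Fxyd6, a regulator of the sodium pump, also had responses of at least 0.5 that were lower in the control diet and higher in DIO (interactions 1.16, SE 0.62, and 1.29, SE 0.83). Both were highest in the same DIO + HMB 3 tumor, at 7.16 and 7.38. The interaction of Lmcd1 was 0.68 without that tumor, and that of Fxyd6 was 0.54 without DIO 3.

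Lymphoid genes had higher HMB responses in DIO than in the control diet in most cases, and most were higher with HMB in both diets. The 15 B cell genes had medians of 0.304 in the control diet and 1.121 in DIO. Of these, 13 were higher with HMB in both, where 60.9% of all genes had the same sign in both diets, higher or lower. The list's median interaction of 0.850 was -0.08 without DIO + HMB 1. Ighm, the IgM heavy chain gene, was 8.85, 8.96 and 9.08 in control, 9.60, 9.63 and 9.05 in control + HMB, 9.07, 8.17 and 8.32 in DIO and 11.27, 9.57, 9.27 and 9.23 in DIO + HMB. DIO + HMB 1 stood above all others. The interaction of 0.85 (SE 0.61) was 0.37 without it. Those of Jchain, the joining chain of secreted antibody, and Blk, a B cell kinase, were 1.79 (SE 1.09) and 1.86 (SE 1.11), and 0.88 and 0.92 without that tumor.

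All 16 T cell receptor genes had a positive interaction (median 0.551), where 56.6% of all genes had a negative one. Genes of a list are not independent results, and the list's median was 0.14 without DIO + HMB 1. Cd3e, a chain of the receptor complex, was 9.16, 9.0 and 9.35 in control, 9.43, 9.43 and 8.67 in control + HMB, 8.43, 8.61 and 7.95 in DIO and 10.26, 8.79, 8.69 and 8.85 in DIO + HMB. All 3 DIO tumors were below every other tumor, and the control groups overlapped. Its responses were 0.01 (SE 0.37) and 0.82 (SE 0.34), and the interaction was 0.81 (SE 0.50, adjusted p = 0.933) and 0.44 without DIO + HMB 1. Zap70, the kinase of the receptor, had 0.85 (SE 0.44), the costimulator gene Icos 1.15 (SE 0.75) and the coreceptor gene Cd8a 0.69 (SE 0.41).

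Of the 13 checkpoint genes, 8 had a positive and 5 a negative interaction (median 0.119), where 56.6% of all genes had a negative one. In both diets 11 were higher with HMB, where 60.9% of all genes had the same sign in both, higher or lower. The median was -0.22 without control + HMB 3. Pdcd1, which encodes PD-1, had responses of 0.77 (SE 0.28) and 0.54 (SE 0.26) and an interaction of -0.22 (SE 0.38), and its ligand gene Cd274 had -0.27 (SE 0.40). Havcr2, which encodes TIM-3, was 6.61, 6.27 and 6.78 in control, 7.35, 7.71 and 7.61 in control + HMB, 7.17, 7.21 and 7.34 in DIO and 7.13, 7.49, 7.81 and 7.34 in DIO + HMB. The control tumors were below the other 10, and the interaction was -0.79 (SE 0.25). Arg1, an arginase of M2-like macrophages, had -0.60 (SE 0.98), and Cxcr2, a chemokine receptor of neutrophils, was higher with HMB in both diets, at 0.71 (SE 0.25) and 1.19 (SE 0.23), with an interaction of 0.48 (SE 0.34).

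The lymph node and adipocyte lists rested on single tumors as well. The lymph node median of 0.707 was 0.02 without DIO + HMB 1, whose score was 2.18 against -0.14 to -0.03 in the other 3 of its group. Madcam1, the addressin of lymphoid vessels, Lta, a cytokine of lymphoid tissue, and Prox1, the master factor of lymphatic endothelium, had interactions of 0.68 (SE 0.45), 0.98 (SE 0.68) and 0.37 (SE 0.27). Of the 11 lymph node genes, 9 had a positive and 2 a negative interaction, where 56.6% of all genes had a negative one. The adipocyte median of 0.580 was -0.16 without control 2 and 1.06 without DIO 1. Slc2a4, the insulin-responsive glucose transporter gene of fat and muscle, had 0.92 (SE 0.41), the lipid droplet gene Plin4 0.92 (SE 0.54) and the lipase gene Lipe 0.57 (SE 0.43). Plin4 and Lipe were highest in DIO + HMB 2, at 10.09 and 7.15.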

How the data were processed

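RNA of 13 tumors was measured on Affymetrix Mouse Gene 2.1 ST chips. RMA (background correction, quantile normalization, probe set summary) was run by the authors, who deposited log2 values, and the submitters' processing notes name RMA, affy and limma without versions. A genome build is not given in the sources used here. Quantile normalization can hide changes shared by most genes, and RMA compresses differences at low signal. Of 41345 probe sets, 23521 had 1 gene symbol, 1820 several and 16004 none here. Of the first, 23328 had an Entrez identifier in RefSeq (GRCm38.p6), all with an equal symbol. For 1082 genes with several probe sets the one with the highest mean was used, leaving 22180 genes with no filter. Groups came from the sample titles.

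All arrays entered 1 limma model (version 3.58.1, R 4.3.3; lmFit and eBayes, 4 group means, 9 residual degrees of freedom), and 1 contrast gave the interaction. Tests were two-sided with Benjamini-Hochberg adjustment over all genes and 0.05 as threshold. The fit was checked on simulated data. The number of arrays limits the precision. Each array held another mouse, so the errors include the spread between mice.

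Named genes were up to 10 per direction past the threshold (0 were). Up to 12 per direction were added with opposite responses of 0.5 or more, at or above the median level. There were 9 and 10 of these, with 1 predicted gene skipped in each direction. Another 3 came from each of the 6 lists with the largest absolute medians and at least 8 measured members. They were the members of lowest interaction p among those with the sign of the list's median. A fixed set of genes, of which not all are reported here, was also named. Other genes named in the text were picked after their values were seen. The 50 lists held 963 genes, 882 of them measured. The members and lists were chosen with earlier results of these data known. Alternatives were a filter on low signal, the mean of probe sets, moderation, array weights, array scaling, array width as a covariate, the replicate number as a block, other sizes, and leaving out each array.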

Additional observations from a re-analysis of the deposited data

Results flagged for a closer look

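A tumor far from the others of its group was looked for in DIO + HMB, the only group with more than 3 arrays, over 59 named genes and 50 list scores. It was found for 7 genes and 10 lists. The rule would flag about 1 in 20 by chance if the items were independent and not selected. That rate cannot be set beside these counts. Some genes were named for large values, and genes and lists that vary together flag the same tumor. DIO + HMB 1 was high for Blk (6.85), Ighm (11.27), Cd3e (10.26) and Arg1 (6.31), and for the scores of B cell and plasma cell (3.29), T cell receptor complex (1.57), lymph node (2.18), epithelial ductal (1.07) and skin and keratinocyte genes (0.52). DIO + HMB 3 was high for Ttn (9.21), Hdc (5.95) and the skeletal muscle score (3.24), and low for the hypoxia (-0.05) and M2-like macrophage scores (-0.15). DIO + HMB 2 was low for Coq3 (5.40) and high for the insulin and IGF signaling score (0.20). DIO + HMB 4 was high for the pancreatic acinar and islet score (0.02). No gene was listed for an HMB response that differed between the diets, since no interaction passed the adjusted threshold in limma (1068 at an unadjusted p under 0.05).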

How the results depend on the processing

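The count of genes past the adjusted threshold was 0 in all 21 alternative fits, and the lowest adjusted p in any of them was 0.284, without control replicate 3. At an unadjusted p under 0.05 the count was 557 with a filter on low signal, which tests fewer genes (85 higher and 472 lower in DIO), and 893 to 1468 with 1 array left out, from DIO + HMB replicate 1 to DIO replicate 2. The share of these genes with a lower response in DIO was 55.9% without control replicate 2. The number of opposed genes was 5 with the filter, 178 with each response at least 0.3, and 0 with each at least 1. With arrays scaled it was 18, of which 11 were among the 24, and with array width as a covariate 28, of which 6 were. With 1 array left out it was 24 to 65: 65 without DIO replicate 3, 43 without control + HMB replicate 1, 38 without control replicate 2 and 38 without control + HMB replicate 3. The cause of these moves was not tested. Of 1225 values of the 59 named genes under alternatives, 3 changed sign, each with 1 array left out: Tpsb2 (-0.01 to 2.37), Ttn (-0.08 to 2.23) and Pdcd1 (-0.56 to 0.03). None of the 1225 passed the adjusted threshold. Of the 50 list medians, 2 moved by at least the SD of the list's score within groups with the filter on low signal. With arrays scaled 1 did so, and with array width as a covariate 1. Replicate numbers are shared between groups, but arrays with the same number did not deviate together: over 18 pairs r ran from -0.185 to 0.297, with 3 above 0.1. With the replicate number as a block, 0 genes passed the adjusted threshold, 1101 had an unadjusted p under 0.05 and 33 were opposed, 18 of them among the 24.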
